A study of Mus musculus with 7 samples.

Results

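Phenylalanine is degraded in the liver by way of tyrosine, and 5 genes of this route or of its cofactor, Qdpr, Tat, Hpd, Hgd and Fah, were examined for binding of the retinoic acid receptors RARα and RARβ and of their partner, the retinoid X receptor RXRα. They are 5 of 21536 protein-coding genes with a known start. The genes were named by pathway, but the group was chosen partly on the data: a strong RARα peak at Hpd had been called under the control diet and not under the retinoic acid (RA) diet. That peak is therefore described here and supports nothing. For each gene, all peaks whose midpoint lay in the gene span or up to 50 kb beyond either end were collected, which gave 205 of the 245004 peaks of the series.

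The livers came from male wild type C57BL/6 mice of 3 months that ate a normal diet (control) or a diet with RA. The labels give 1 day of feeding, while the methods of the study give a longer one. Chromatin was precipitated with an antibody against each receptor, and the fragments were sequenced (ChIP-seq). There was 1 library for each receptor and diet, 6 in all, beside an input library of chromatin without antibody that served both diets and for which no peak list was analysed here. The number of mice behind each library is not given in the sources used here. The lists held 35521 (control) and 44296 (RA) peaks for RARα, 14968 and 29467 for RARβ, and 61128 and 59624 for RXRα. The read depth behind each list is unknown. With 1 library in a group no difference below has a replicate check, no test was made, and antibody yield, read depth and diet cannot be told apart. Peak lists carry no RNA, so the tissue label could not be checked against marker genes.

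Tyrosine breakdown is a classic liver function and runs through a fixed chain of enzymes. Hydroxylation of phenylalanine yields tyrosine and consumes tetrahydrobiopterin, which Qdpr, quinoid dihydropteridine reductase, regenerates. Tat, tyrosine aminotransferase, removes the amino group, Hpd, hydroxyphenylpyruvate dioxygenase, forms homogentisate, Hgd, homogentisate dioxygenase, opens its ring, and Fah, fumarylacetoacetate hydrolase, cleaves the last intermediate into fumarate and acetoacetate. RARs bind DNA as heterodimers with RXR and respond to RA, and RXRα is also the partner of PPARα, LXR, FXR and other receptors of the hepatocyte. Their usual element is a pair of hexamers related to AGGTCA.

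On GRCm38, Qdpr (gene ID 110391) spans chromosome 5, 45434032 to 45450229, on the minus strand. Hpd (15445) lies on the same chromosome at 123171807 to 123182723, minus strand, and Fah (14085) on chromosome 7 at 84585159 to 84605942, minus strand. Tat (234724) spans chromosome 8, 109986078 to 109999804, and Hgd (15233) chromosome 16, 37579742 to 37632026, both on the plus strand. The spans are 16.2 kb for Qdpr, 13.7 kb for Tat, 10.9 kb for Hpd, 52.3 kb for Hgd and 20.8 kb for Fah, against a median of 17.3 kb for protein-coding genes. The start used for Tat, 109990436, lies 4358 bp inside its span. Positions relative to exons and introns were not analysed here.

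The promoter windows of Hpd, Fah, Hgd and Tat are printed because they show different states of occupancy at the start. Each runs from 250 bases before to 50 bases after the start, 5′ to 3′ in the direction of the gene (RefSeq, GRCm38.p6). Hpd is chr5:123182674-123182973, Fah chr7:84605893-84606192, Hgd chr16:37579903-37580202 and Tat chr8:109990186-109990485. Capitals mark, on either strand, the hexamer AGGTCA, the related hexamer GGGTCA, its variant AGTTCA, or the variant GGTTCA.
Hpd: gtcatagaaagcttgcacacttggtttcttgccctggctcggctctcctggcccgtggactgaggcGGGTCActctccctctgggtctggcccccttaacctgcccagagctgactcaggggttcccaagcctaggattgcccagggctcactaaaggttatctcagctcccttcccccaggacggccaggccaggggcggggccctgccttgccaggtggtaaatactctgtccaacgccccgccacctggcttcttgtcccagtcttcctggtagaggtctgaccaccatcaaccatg
Fah: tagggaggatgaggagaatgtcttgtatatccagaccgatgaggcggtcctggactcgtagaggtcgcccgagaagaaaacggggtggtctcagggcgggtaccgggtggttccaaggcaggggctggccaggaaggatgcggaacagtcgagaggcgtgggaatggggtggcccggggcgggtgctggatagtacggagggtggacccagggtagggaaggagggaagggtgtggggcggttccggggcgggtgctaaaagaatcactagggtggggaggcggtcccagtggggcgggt
Hgd: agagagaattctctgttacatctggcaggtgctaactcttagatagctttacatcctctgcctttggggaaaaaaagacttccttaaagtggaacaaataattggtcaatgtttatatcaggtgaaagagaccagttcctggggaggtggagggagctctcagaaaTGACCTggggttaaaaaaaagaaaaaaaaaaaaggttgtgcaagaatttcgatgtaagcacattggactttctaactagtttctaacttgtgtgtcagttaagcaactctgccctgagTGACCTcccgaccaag
Tat: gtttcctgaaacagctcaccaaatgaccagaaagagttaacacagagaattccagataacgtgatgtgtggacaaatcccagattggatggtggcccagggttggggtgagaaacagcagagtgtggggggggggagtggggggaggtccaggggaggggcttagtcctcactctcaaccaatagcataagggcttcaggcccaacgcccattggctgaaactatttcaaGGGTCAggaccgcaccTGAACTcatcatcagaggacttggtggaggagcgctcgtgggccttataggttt

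All 300 bases of the Fah window lay inside a peak in 6 of 6 lists, those of Hgd and Qdpr in 5, those of Hpd in 4 and those of Tat in 1. Counted from the start base as 0, the Hpd window held GGGTCA at -184. The Hgd window held AGGTCA on the opposite strand at -84 and at 34. In the Tat window GGGTCA began at -20 and AGTTCA, on the opposite strand, at -4. The windows of Fah and Qdpr held none of these letters. Of all 32851 RefSeq promoter windows, 43.7% held at least 1 of the 4 hexamers and 13.1% at least 2. AGGTCA alone was in 16.3%, GGGTCA in 13.7%, AGTTCA in 14.0% and GGTTCA in 10.4%. A match is a description and not a binding site.

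The windows also differed in base composition. Fah and Qdpr were rich in G and C, with 64.3% and 60.7%, and held 19 and 23 CG pairs, against a median of 7 CG pairs over all promoter windows. Hpd was as rich in G and C (61.3%) but held 7 CG pairs. Hgd had 41.0% G and C with 2 CG pairs, and Tat 53.7% with 5.

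The peak caller's score is 10 times the negative log10 of its p-value, and it was not normalised between libraries. Peaks were therefore placed by their percentile, the share of peaks of the same list with a score at or below theirs. A site that is missing from a list was not called in that library, which is not the same as an absence of binding.

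RXRα was called near the start of each gene, mostly at high percentiles, RARα near most of them, and RARβ over more of the starts under RA than under the control diet. RXRα peaks lay within 10 kb of the start of 5 of 5 genes under each diet, against 61.3% of protein-coding genes under the control diet and 61.7% under RA. Such a peak of RARα was called at 4 of the 5 under the control diet (all genes 61.7%) and at 4 under RA (63.2%). RARβ had one at 4 under the control diet (44.0%) and at 5 under RA (54.6%). The RARα control count includes Hpd, on whose RARα peak the group was chosen, and the RARα count under RA does not. Qdpr, Hgd and Fah had a peak within 10 kb in all 6 lists, Tat in 5 and Hpd in 4.

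A stricter reading is whether a peak covers the start base itself. Under the control diet RXRα covered the start of 5 genes (34.6% of all genes), RARα of 4 (45.0%) and RARβ of 1 (30.6%). Under RA, RXRα covered 4 (37.9%), RARα 3 (43.6%) and RARβ 4 (38.9%). RARβ thus went from Fah alone under the control diet to Qdpr, Hpd, Hgd and Fah under RA. Such a start, covered by RARβ under RA only, occurred in 10.6% of all genes. The RARα counts differ between the diets by the Hpd start alone, on which the group was chosen.

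The score order of the best peak near the start separated RXRα from RARβ. With a gene without a peak counted as 0, the median percentile of the 5 genes was 88.1 for RXRα under the control diet and 92.1 under RA, where all protein-coding genes had medians of 33.5 and 37.0. For RARα the medians were 67.9 and 62.8, against 51.2 and 54.4 for all genes. For RARβ the medians were 24.1 and 56.7, against 0 and 22.7 for all genes.

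**Figure D1:**
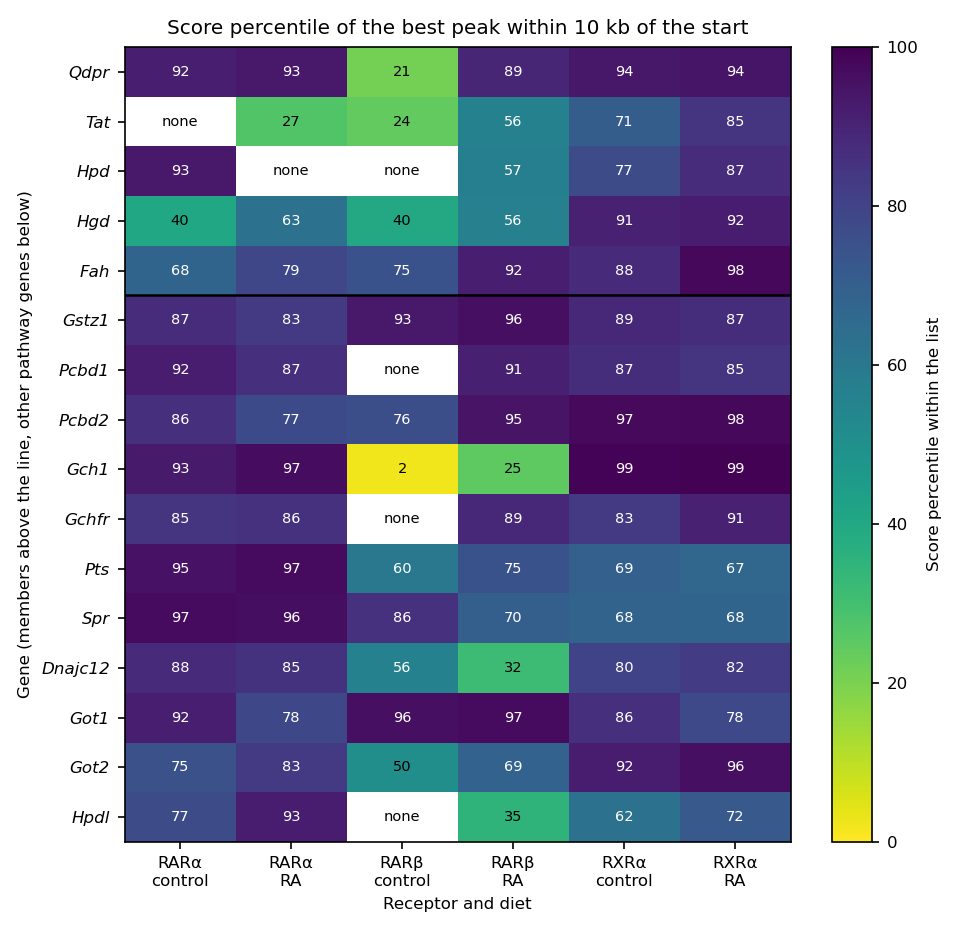
Score percentile within its list (colour and printed number) of the best peak within 10 kb of the start, for the 5 genes above the line and 11 other genes of the pathway or its cofactor below it, in each of the 6 lists; white cells marked none had no peak. Hpd has no RARα peak under RA and no RARβ peak under the control diet, whereas RXRα is present in each row.

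Fah showed the most complete occupancy at the start. Its best peak within 10 kb had a score of 171 for RARα under the control diet (67.9th percentile) and 247 under RA (78.8th). For RARβ the score was 115 under the control diet (74.8th percentile) and 247 under RA (91.6th), and for RXRα it was 446 (88.1st) and 893 (97.7th). The RXRα peak under RA ranked 1382nd of 59624 and was the highest-placed peak of the 5 genes near a start.

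The shape of the Fah site differed between the diets as well. Under the control diet, each receptor had a pair of peaks there, 1 over the start and 1 whose midpoint lay 1.29 to 1.43 kb downstream. Under RA, RARβ and RXRα each had 1 broad peak over both positions, 2915 and 2889 bp wide, whereas RARα kept 2 separate peaks. All of these fell in 1 merged region of 2932 bp, which was the only region of the Fah window called by all 3 receptors. The rest of the Fah window held weak peaks: 1 RARβ control peak at 9.21 kb (47.7th percentile) and RXRα peaks between -44.7 and 54.5 kb, none above the 45.7th percentile. The merged region at the start was thus the only site above the 47.7th percentile in this window of 121 kb.

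Qdpr was held at its start by RARα and RXRα under both diets. The RARα peak there had a score of 367 under the control diet (91.5th percentile) and 405 under RA (93.1st). The RXRα peak had a score of 594 under the control diet (93.6th) and 645 under RA (94.2nd). Both receptors therefore kept nearly the same place in their lists.

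RARβ differed at the Qdpr start. Under RA a peak of 1451 bp covered the start, with its midpoint 29 bp upstream. Its score of 223 was at the 89.1st percentile. Under the control diet the best RARβ peak within 10 kb lay 5.61 kb downstream, at the 21.0th percentile, and none touched the start. The start of Clrn2 lies at -3.52 kb from that of Qdpr, so both genes share these peaks.

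Hgd had strong RXRα and weaker RAR peaks at the start. The RXRα peak had a score of 507 under the control diet (90.8th percentile) and 567 under RA (92.1st). The RARα peak was at the 40.5th percentile with a width of 1027 bp under the control diet, and at the 62.8th with 4146 bp under RA. RARβ covered the start under RA only, at the 56.4th percentile (score 110), and its best control peak lay 4.71 kb downstream at the 39.7th percentile. Further along the 52.3 kb gene, RXRα alone had peaks near 17.5 and 27.0 kb under both diets. They stood at the 64.8th and 66.3rd percentiles under the control diet and at the 22.2nd and 48.3rd under RA.

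At Tat most peaks near the start were RXRα peaks. RXRα had 6 peaks within 10 kb of the start under the control diet and 5 under RA. RARα had 0 there under the control diet and 2 under RA. RARβ had 1 there under each diet. The best RXRα peak lay at -3.95 kb under the control diet, where its score of 244 was at the 70.6th percentile, and at -3.98 kb under RA, with a score of 407 at the 85.0th. RARβ was called at that site under RA only (score 110, 56.2nd percentile), and RARα in neither list.

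At the Tat start itself only RXRα under the control diet had a peak. Its midpoint lay 102 bp upstream, and its score of 163 was at the 55.8th percentile. A start covered by RXRα under the control diet and not under RA occurred in 3.48% of all genes. Under RA, RXRα had instead a peak at -2.52 kb (score 203, 63.3rd percentile) that no RXRα control peak overlapped. RXRα peaks at -17.3, -10.9 and -7.77 kb under the control diet stood at the 81.8th, 74.7th and 57.8th percentiles. Their counterparts under RA, at -17.2, -10.9 and -7.76 kb, stood at the 86.8th, 86.8th and 77.7th. RARβ was called at the sites near -17.3 and -10.9 kb under RA only, at the 84.6th and 56.8th percentiles.

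Hpd was the member with the peak that led to its choice. The RARα control peak ran from 123181420 to 123183125 on chromosome 5, was 1706 bp wide and covered the start. Its score of 400 ranked 2361st of 35521, at the 93.4th percentile. No RARα peak under RA overlapped it by even 1 bp. In that list the nearest RARα peaks were 12.2 kb upstream and 25.6 kb downstream of its edges. Of the RARα control peaks, 5469 (15.4%) had no overlap under RA, and the Hpd peak had the 2nd highest score among them. A start covered by RARα under the control diet and not under RA was found in 3.50% of all genes, and the reverse in 2.08%.

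The same Hpd region was called in other lists. RARβ covered the start under RA only, with a peak of 1930 bp at the 39.6th percentile (score 84.3). That peak ranked 17798th of 29467, beyond the length of the RARβ control list (14968 peaks). RXRα had a pair of adjoining peaks there under both diets. Under the control diet they stood at the 49.7th percentile over the start and at the 77.1st some 0.957 kb downstream, and under RA at the 60.1st and 33.3rd. The part nearer the start was thus the higher of the pair under RA and the lower under the control diet.

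RARα was not gone from the Hpd window under RA. It had 10 peaks there under the control diet and 8 under RA, of which 5 were shared. In the region at -13.7 kb its peak stood at the 56.2nd percentile (score 128) under the control diet and at the 84.9th (score 299) under RA. This site was called in all 6 lists, and RXRα stood there at the 88.6th and 90.0th percentiles. The RARα peaks about 41.4 kb downstream, nearest to the start of Setd1b, were at the 92.3rd percentile under the control diet and the 92.2nd under RA.

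Near the 3′ end of Hpd, RARβ and RXRα both stood higher in their lists under RA. A RARβ peak just beyond the gene end, 12.9 kb from the start, was called under RA only, with a score of 233 at the 90.2nd percentile. RXRα was at the 6.31st percentile there under the control diet and at the 71.6th under RA. RARα had a peak of 4744 bp over the same place under the control diet, at the 13.1st percentile, and none under RA. At -3.38 kb, RXRα was at the 29.6th percentile under the control diet and the 87.3rd under RA, and RARβ was called under RA only, at the 56.7th.

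**Figure D2:**
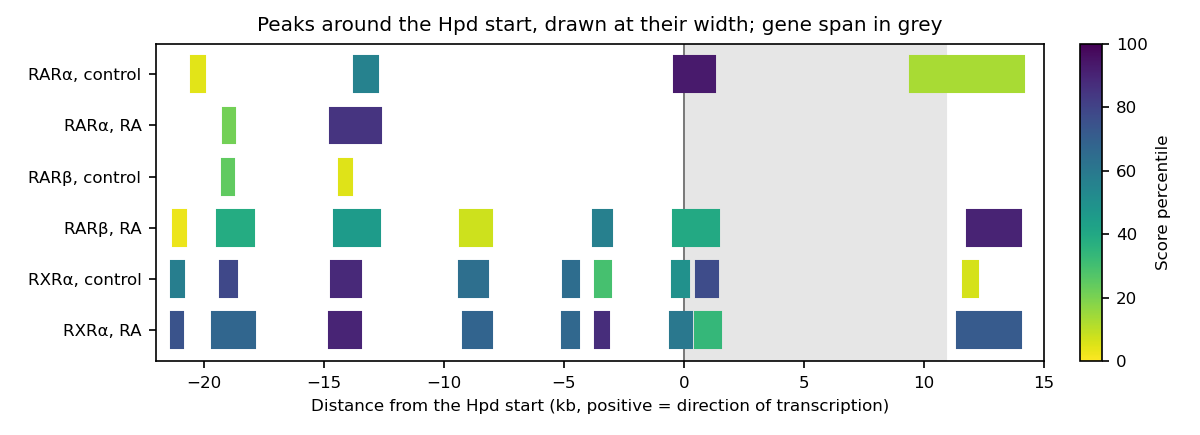
Peaks from 22 kb upstream to 15 kb downstream of the Hpd start, 1 row for each receptor and diet, with distance from the start in kb on the horizontal axis; each bar is a peak at its true width, the colour is its score percentile within the list, and grey marks the gene span. The RARα control peak over the start (93.4th percentile) has no counterpart in the RARα row under RA, and RARβ peaks at -21.0, -8.66, -3.38, 0.491 and 12.9 kb appear in the RA row only.

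The number of peaks in the windows followed the length of the lists. RXRα had 56 peaks in the 5 windows under the control diet and 50 under RA. The counts were 28 and 32 for RARα, and 13 and 26 for RARβ. When each list was shortened to its 14968 highest scores, the windows held 13 and 14 peaks of RXRα, 12 and 16 RARα peaks, and 13 and 14 RARβ peaks. At equal length the 6 lists thus differed by 4 peaks at most.

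Hpd held the most peaks and Fah the fewest, 64 and 19 over all lists, with 45 for Hgd, 41 for Qdpr and 36 for Tat. The Hpd window held 17 and 16 RXRα peaks, where the median protein-coding gene had 5 under each diet. Its RARβ peaks numbered 3 under the control diet and 10 under RA, where the medians were 1 and 3. Fah had 3 RARβ peaks under the control diet and 1 under RA: the pair at the start was called as 1 peak under RA, and the peak at 9.21 kb had no counterpart. Tat had 1 and 3, Qdpr 3 and 6, and Hgd 3 and 6.

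**Figure D3:**
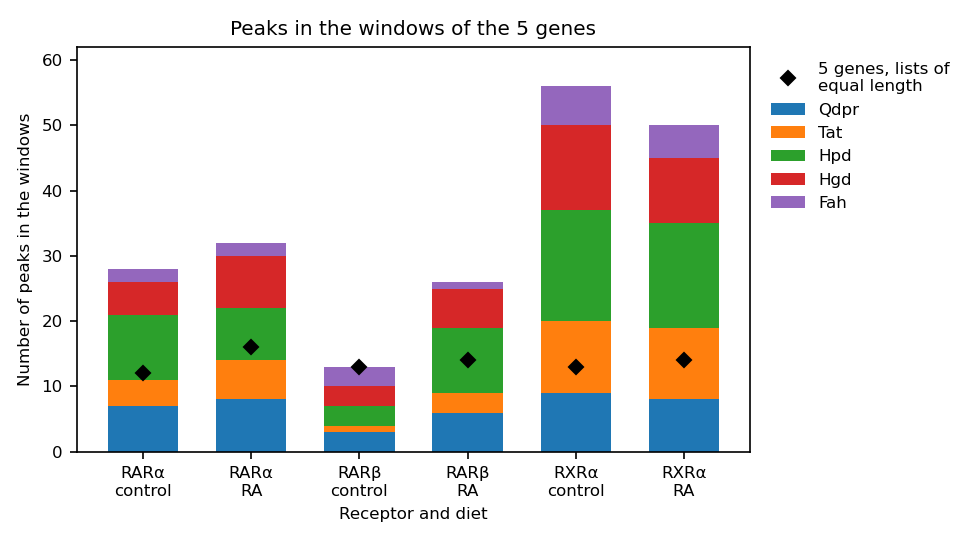
Number of peaks in the windows of the 5 genes (vertical axis, from 0) for each receptor and diet; colours give the gene, and diamonds the total of the 5 genes when all lists have the length of the shortest. The bars run from 13 to 56 peaks and the diamonds from 12 to 16.

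The windows are wide, and many of their peaks lie nearer to other genes. Of the 205 peaks, 114 had the start of the gene itself as the nearest protein-coding start, and 50 had their midpoint inside the gene span. The share nearest to the own start was 15 of 19 for Fah, 24 of 36 for Tat, 33 of 64 for Hpd, 21 of 41 for Qdpr and 21 of 45 for Hgd. At the limit of 50 kb from the span, the outermost Hgd peak counted lay 49.4 kb away (RXRα under RA, score 341) and the nearest one left out 50.7 kb away (RARα under RA, score 121). For Hpd these distances were 45.6 and 51.2 kb, and for Fah 44.7 and 54.3 kb. For Qdpr they were 47.1 and 65.04 kb, and for Tat 40.5 and 64.6 kb.

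**Figure D4:**
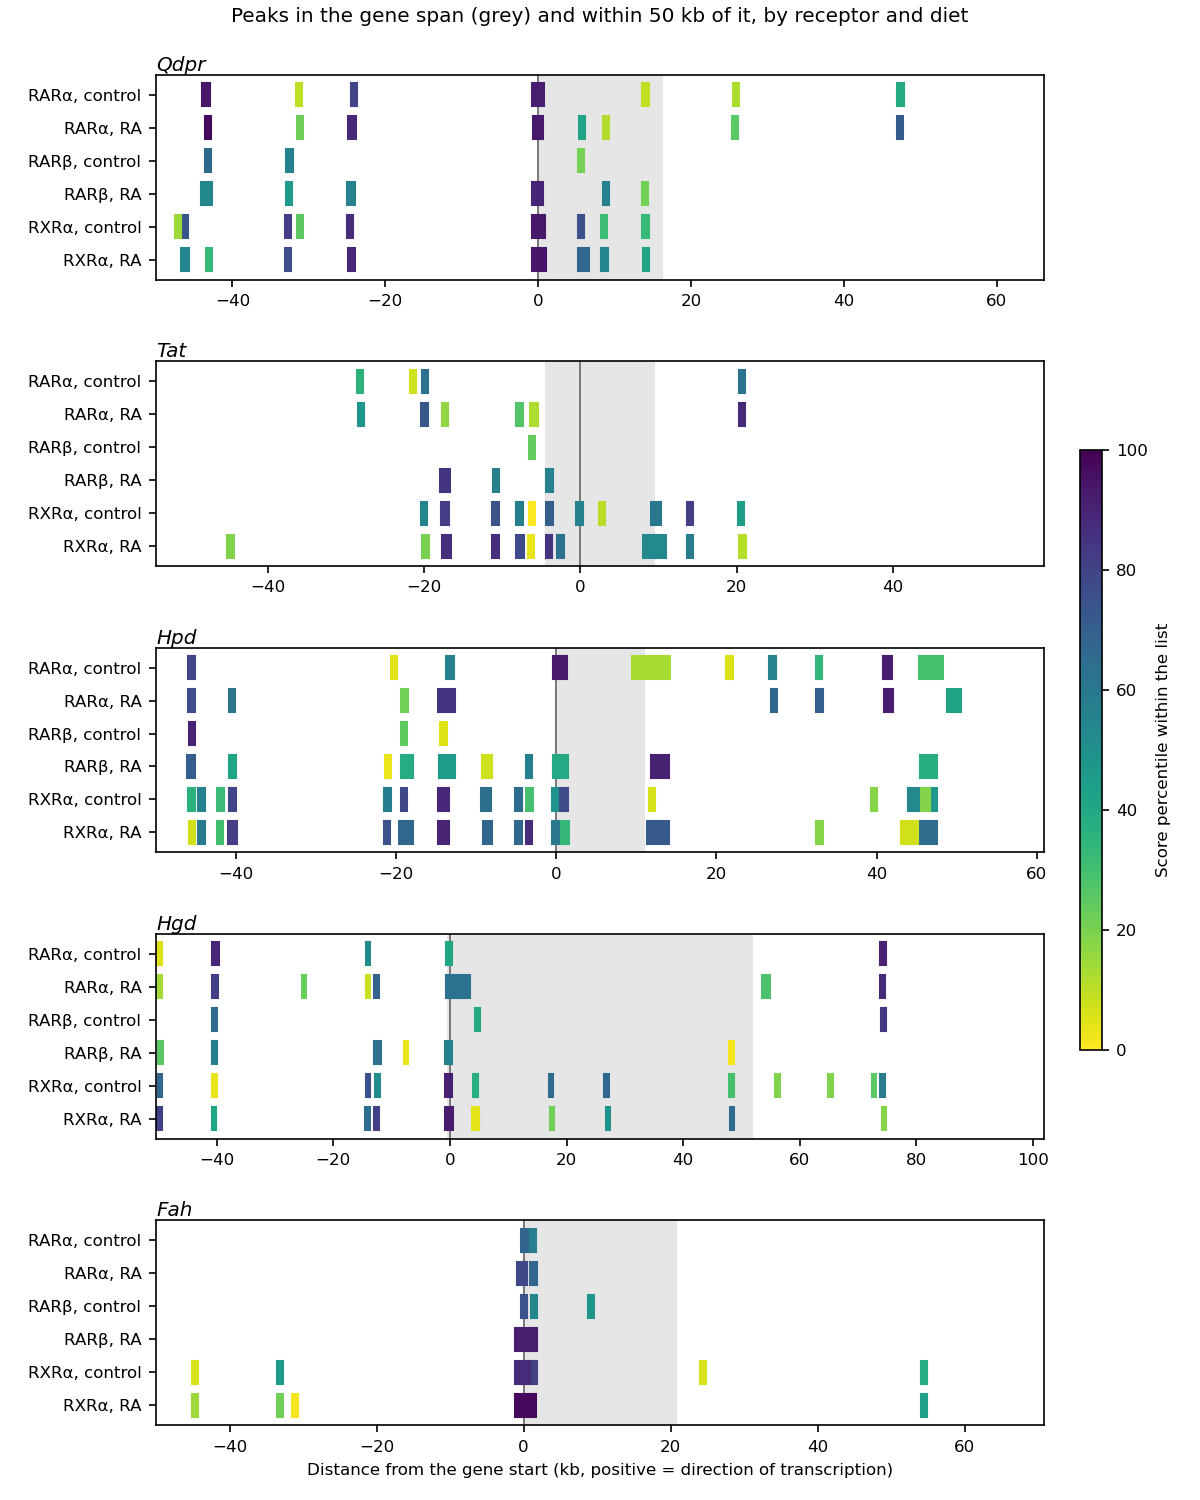
All 205 peaks of the 5 windows by distance from the start of each gene (kb, positive in the direction of transcription), 1 row for each receptor and diet; bars are peaks, of which narrow ones are widened to be visible, the colour is the score percentile within the list, and grey marks the gene span. In the Fah window the peaks away from the start are all at or below the 47.7th percentile. Tat lacks RAR peaks over its start, and the RARβ rows hold 13 peaks under the control diet and 26 under RA.

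The next comparison asked how far the same sites were held under both diets. Sharing required an overlap of 25% or more of the width of both peaks. Of the RXRα peaks of the windows, 46 of 56 control peaks (82.1%, Wilson 95% interval 70.2 to 90.0) and 44 of 50 peaks under RA (88.0%, 76.2 to 94.4) were shared. Over the whole lists the shares were 78.7% and 80.3%. For RARα, 20 of 28 control peaks (71.4%, 52.9 to 84.7) and 20 of 32 peaks under RA (62.5%, 45.3 to 77.1) were shared, against 84.2% and 68.4% over the lists. For RARβ, 7 of 13 (53.8%, 29.1 to 76.8) and 7 of 26 (26.9%, 13.7 to 46.1) were shared, against 75.8% and 38.2%. Each interval held the share of the whole list, though for the RARα and RARβ control peaks that share lay close to the upper end. Intervals cover counting error only. They treat the peaks as independent although these cluster in a few windows, and they are no test. The RARα control count includes the Hpd peak on which the group was chosen.

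Peaks with a score of at least 100 and no counterpart under the other diet were mostly RARβ peaks under RA. Scores were not normalised between libraries, so this limit falls at a different place in each list. The median scores under the control diet and RA were 111.7 and 122.57 for RARα, 76.29 and 99.4 for RARβ, and 140.87 and 144.61 for RXRα. Among window peaks with a score of at least 100, 10 of 14 RARβ peaks under RA lay clear of all RARβ control peaks, against 42.6% over that list. In the reverse direction it was 1 of 3 (3.99% over the list), a peak nearest to Ndufb4 in the Hgd window. For RARα it was 1 of 15 under the control diet (2.89%), the Hpd peak on which the group was chosen, and 4 of 21 under RA (12.1%). For RXRα it was 1 of 38 under the control diet (7.61%) and 1 of 34 under RA (6.31%), both of them the peaks at Tat described above. The RARα peak under RA with the highest score of the 4 lay at -12.6 kb from the Hgd start (score 189), where RARβ was also called under RA only and RXRα under both diets.

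Between receptors, RARβ peaks were mostly shared with RXRα, in the windows as over the whole lists. Of the RARβ peaks of the windows, 11 of 13 control peaks (84.6%, 57.8 to 95.7) and 25 of 26 peaks under RA (96.2%, 81.1 to 99.3) were shared with RXRα under the same diet. They were shared with RARα in 6 of 13 (46.2%, 23.2 to 70.9) and 14 of 26 cases (53.8%, 35.5 to 71.2). Over the whole lists, RARβ shared 77.8% and 89.9% with RXRα, and 74.2% and 72.1% with RARα. The RARβ shares with RARα were thus lower in the windows than over the lists, and neither interval held the list share. That difference was not tested. RARα peaks of the windows were shared with RXRα in 15 of 28 cases (53.6%, 35.8 to 70.5) under the control diet and 23 of 32 (71.9%, 54.6 to 84.4) under RA, against 61.1% and 61.7% over the lists. The missing RARα peak at Hpd under RA, on which the group was chosen, enters the counts with RARα.

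Overlapping peaks of the 6 lists were then merged into regions, of which 70 had their midpoint in the 5 windows. All 3 receptors were called in 21 of the 70, where the share over the 87802 regions of the genome was 25.8%. All 6 lists were present in 4 of the 70 (9.75% genome-wide), namely the Fah start, an Hpd region at -13.7 kb, a region at Psmd9 and one at Rabl3 and Gtf2e1. RXRα alone held 22 regions (36.3% genome-wide) and RARα alone 11 (16.4%). RARβ was called under RA and not under the control diet in 19 regions (19.8% genome-wide), and 18 of these 19 had an RXRα peak under the control diet, where the share over all such regions of the genome was 86.7%. Hpd held 7 of the 19, Hgd 5, Qdpr 4, Tat 3 and Fah 0.

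The other genes of the pathway and of its cofactor were occupied by all 3 receptors as well. This list of 11 genes holds Gstz1, the isomerase between Hgd and Fah, the aspartate aminotransferases Got1 and Got2, and Hpdl, a relative of Hpd. It also holds the tetrahydrobiopterin genes Gch1, Gchfr, Pts, Spr, Pcbd1 and Pcbd2, and Dnajc12, a chaperone of the aromatic amino acid hydroxylases. RARα and RXRα were called within 10 kb at 11 of 11 starts under each diet, and RARβ at 8 under the control diet and 11 under RA. The start base was covered by RARα in 10 of 11 under each diet, by RARβ in 6 and 9, and by RXRα in 7 and 9. The background shares are those given above for the members.

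Median percentiles of the best peak over these 11 genes were 88.1 and 85.8 for RARα under the control diet and RA, 56.1 and 74.7 for RARβ, and 86.2 and 84.7 for RXRα. Spr, sepiapterin reductase, had RARα at the 97.2nd and 96.3rd percentiles and RXRα at the 68.1st and 67.9th. Gch1, the enzyme that opens tetrahydrobiopterin synthesis, had an RXRα peak at -7.66 kb under the control diet at the 99.0th percentile and one at -7.63 kb under RA at the 99.4th. RARβ was weak at Gch1, at the 2.18th and 24.9th percentiles. Pcbd1 and Gchfr, like Hpd, had RARβ within 10 kb under RA only, at the 91.1st and 88.7th percentiles, and so had Hpdl at the 35.0th.

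Genes with the most similar pattern were sought by the distance between the 6 percentiles of the best peak near the start, over all protein-coding genes. For Hgd they were Qprt, Serpina6 and Dhx40, at distances of 11.4, 12.7 and 13.9 percentile points. Qprt belongs to NAD synthesis, and Serpina6 encodes corticosteroid-binding globulin. For Fah they were Cyb5r4 and Ripply2, both at 10.6, and Uck1 at 11.5. For Qdpr the nearest was its neighbour Clrn2, at 0 because both have the same best peaks, followed by Fndc8 and Rad51d, both at 8.58 with equal values in all 6 lists. For Tat the nearest genes were farther away, among them Slc8a2 at 21.2 and Kptn at 22.3. For Hpd they were Zfp870 at 28.2, Prg4 at 32.4 and Pcgf6 at 33.2. The Hpd distances use the RARα values on which the group was chosen, and thus restate that choice.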

How the data were processed

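Per the study's methods, the authors used Bowtie 0.12.7 for alignment to mm10, and MACS 1.4.1 as the peak caller. The 6 deposited files are 1 peak list per library with the caller's score, not normalised between libraries. The study gives uniquely mapped reads for RXRα and for RARα without naming a diet, and none for RARβ. The depth of each list is therefore unknown. Peak ends reach 90842021 on chromosome Y, which mm10 (GRCm38) holds and the older mm9 does not. Gene spans came from a RefSeq table of GRCm38.p6. Starts came from the RefSeq promoter table for 17492 genes, the 5 members among them, and from the span with the strand of GENCODE M1 for 4044; 364 genes without a strand were left out. Python 3.11.15 with pandas 2.3.3 counted peak midpoints, overlaps and percentiles, after the counting steps had been checked on peaks planted at known places. Receptor and diet in the labels set the groups, and no test was made, since each group is 1 library. Named were the 5 members, 11 pathway genes from general knowledge, the 3 genes most alike each member (1 is not reported here), and window peaks with a score of at least 100 that lacked a counterpart. The members and lists were chosen with earlier results of these data known.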

Additional observations from a re-analysis of the deposited data

Results flagged for a closer look

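The Hpd start differed between receptors in the direction of its change. RARα covered it under the control diet only, with a score of 400.36, and RARβ under RA only, with a score of 84.34. RXRα covered it under both diets. The difference was not tested, since each list is 1 library, and the RARα side of it is the value on which Hpd was chosen. The list of RARβ peaks under RA is longer than that under the control diet, 29467 against 14968. The RARβ peak over the Hpd start ranked 17798th under RA and is thus not among the 14968 highest scores of that list. The RARβ side of the difference is therefore not present at equal list length. Its cause was not tested.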

How the results depend on the processing

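With a minimum score of 100 the windows held 15 RARα control, 21 RARα RA, 3 RARβ control and 14 RARβ RA peaks. At equal list length they held 12, 16, 13 and 14, and 13 (control) and 14 (RA) of RXRα. With 10 kb around the span in place of 50 kb they held 8 and 10 RARα, 6 and 13 RARβ, and 27 and 23 RXRα peaks. Without Hpd, an alternative chosen after seeing the data, 18 RARα control and 16 RARβ RA peaks were left. Within 1 kb of the start, RARα under RA held 2 of the members and RARβ under the control diet 1. RARα under RA held 2 at equal list length, and RARβ under the control diet 1 with a score of at least 100. With an overlap of 50% of each width, 23.1% of RARβ control and 11.5% of RARβ RA window peaks were shared between diets. RXRα window peaks fell from 56 and 50 to 38 and 34 with a minimum score of 100, and to 39 and 34 without Hpd. The other alternative values moved less. The outermost start of the span, also chosen after seeing the data, moved none of the counts of members with a peak within 10 kb. The counts of starts covered by a peak were not repeated with it. For Tat the outermost start is 109986078, and the RXRα control peak nearest to it begins at 109986082 and does not cover it. The RARα control peak at Hpd had 0 overlapping peaks under RA at any overlap. The cause of these moves was not tested, apart from the smaller number of peaks that a stricter limit leaves by construction. With no read total for each list and 1 library in each group, neither the depth of a list nor the spread between animals can be given.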

Other observations

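Several neighbours of the 5 genes had RARα at a higher percentile than RXRα at their starts. These genes were not chosen in advance and are named because their starts lie nearest to peaks of the windows. The same order holds for protein-coding genes at large, so it is not particular to these neighbours. Over all of them the median percentile of the best peak within 10 kb was 51.2 (control) and 54.4 (RA) for RARα. For RXRα it was 33.5 and 37.0. At Lap3, an aminopeptidase gene upstream of Qdpr, RARα stood at the 94.3rd percentile under the control diet and the 97.3rd under RA, whereas RXRα had a peak at the start under RA only, at the 33.2nd. At Ndufb4, a gene of respiratory complex I downstream of Hgd, RARα stood at the 90.8th and 88.2nd percentiles and RXRα at the 58.7th and 18.2nd. At the close starts of Rabl3 and Gtf2e1, RARα stood at the 89.2nd and 81.6th percentiles and RXRα at the 3.29th and 41.5th. RARα peaks near the start of Setd1b, a histone methyltransferase gene, stood at the 92.3rd and 92.2nd percentiles, and no RXRα peak overlapped them. Psmd9, a proteasome assembly gene upstream of Hpd, had all 3 receptors at its start under both diets, with RARβ at the 90.5th percentile under the control diet and the 70.4th under RA. Read within 10 kb, the contrast shrank at some of these genes. At Lap3, RXRα then stood at the 73.3rd percentile (control) and the 54.2nd (RA), still below RARα. At Gtf2e1 it stood at the 66.7th and 80.3rd, also below RARα. At Psmd9, RXRα peaks within 10 kb stood at the 79.7th and 81.7th percentiles. RARα at the Psmd9 start stood at the 79.9th and 76.3rd, and was thus the lower under RA. At Ndufb4 the RXRα values did not change. Among the 5 genes themselves the order varied. Within 10 kb of the start, RXRα stood above RARα under both diets at Hgd and Fah, at Tat, where RARα was not called under the control diet, and by a small margin at Qdpr (93.6 against 91.5 under the control diet, 94.2 against 93.1 under RA), whereas at Hpd RARα was higher under the control diet (93.4 against 77.1) and not called under RA. Percentiles come from lists of different lengths and the difference was not tested.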
